A study of Mus musculus with 6 samples.

Results

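Cux2, Rasgrf2, Fezf2, Bcl11b, Tbr1, Foxp2, Crym, Vwc2l and Lrrc55 are 9 genes chosen by name from 24062 gene symbols, because most of them mark layers of the neocortex or neurons near it and because their levels in the libraries of stressed and unstressed mice had already been looked at. The stress against control values below therefore describe these genes and carry no test. RNA came from the ventral dentate gyrus, the lower part of the input region of the hippocampus, of male mice of the strain labelled C57black 6. 3 libraries (CRS1 to CRS3) came from mice under chronic restraint, in which repeated confinement serves as a psychological stressor, and 3 (Ctrl1 to Ctrl3) from mice that were not stressed. No genotype or drug is given for either group, and the labels used here state neither the animals' age, nor how long the restraint lasted, nor how many animals a library holds. The replicates are called biological.

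The neocortex is built in layers whose excitatory neurons are set apart during development by transcription factors that restrain one another, with Cux2 in upper layers, Fezf2 and Bcl11b in neurons that project below the cortex, and Tbr1 and Foxp2 in neurons that project to the thalamus. None of these genes is limited to the neocortex. Bcl11b is also known in dentate granule neurons, hippocampal pyramidal neurons and the striatum, Tbr1 in hippocampal excitatory neurons, and Foxp2 in the striatum and thalamus. In RNA of a whole tissue piece, the cells that made a transcript are not seen, and fewer cells of a type and less RNA per cell cannot be told apart.

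The libraries held 8305753 to 10107953 counts over genes. The granule neuron markers Prox1, C1ql3 and Ahcyl2 were present in all of them, at 47.5 to 127 CPM (the count scaled to a common library total) for Prox1 in CRS and 93.1 to 132 CPM in Ctrl. C1ql3 was at 110 to 356 CPM in CRS and 293 to 317 CPM in Ctrl, and Ahcyl2 at 283 to 351 CPM in CRS and 288 to 336 CPM in Ctrl. CRS1 stood apart from the other 5. Its 15 granule neuron markers summed to 1125 CPM, against 1911 and 2094 CPM in CRS2 and CRS3 and 1654 to 2031 CPM in Ctrl. Its 14 striatum and amygdala markers summed to 1241 CPM, against 322 and 325 CPM in CRS2 and CRS3 and 328 to 352 CPM in Ctrl, and its 11 choroid plexus markers to 4779 CPM, against 25.7 to 33.4 CPM in the other 5. The leading genes of these lists were Pde10a at 329 CPM and Foxp1 at 127 CPM in CRS1, against 115 to 131 CPM and 70.8 to 91.7 CPM in the other 5 libraries, and Ttr at 4171 CPM and Kl at 195 CPM, against 2.08 to 6.53 CPM and 17.7 to 23.6 CPM. No marker of these 3 lists was at 0 in all libraries. Results are therefore given with and without CRS1.

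**Figure D1:**
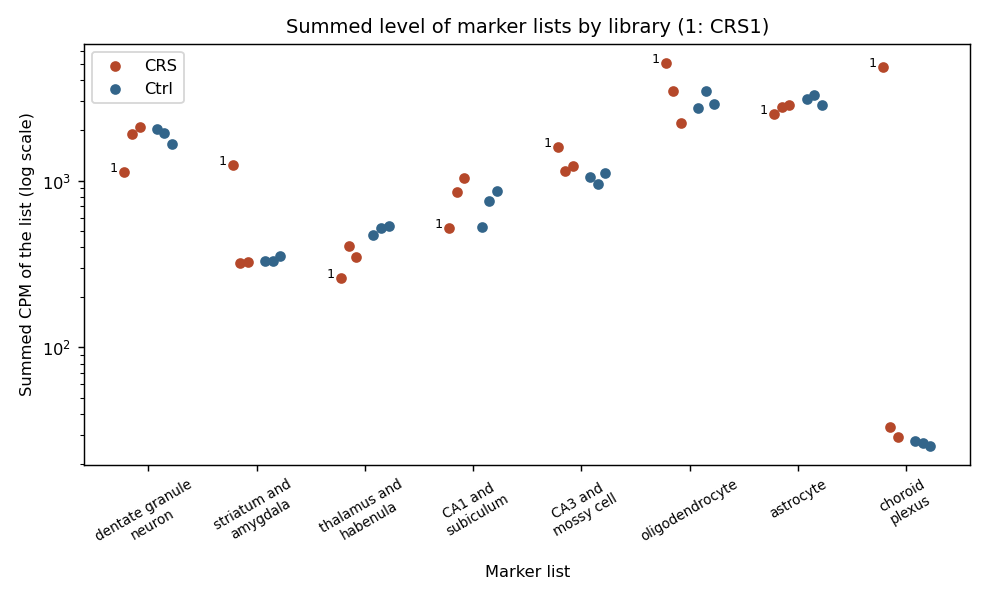
Summed CPM of 8 marker lists (log axis) in each library, CRS in red and Ctrl in blue, with CRS1 marked 1. In the striatum and amygdala list and the choroid plexus list, CRS1 lies far above the other 5 libraries, and in the granule neuron list it lies below them.

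All 9 are protein-coding and lie on 8 chromosomes of GRCm38. Windows of 300 bases, from 250 before to 50 after the start annotated by RefSeq (which for Lrrc55 and Rasgrf2 lies outside the GENCODE gene), were found for 7 of the 9 in RefSeq's promoter table for GRCm38.p6, and not for Foxp2 and Crym. 4 of them are shown, for the 3 genes whose CRS levels were lowest relative to Ctrl (Cux2, Vwc2l and Lrrc55) and for Bcl11b, which was higher in 2 of 3 CRS libraries. They are chr5:122049802-122050101 (minus strand), chr1:70725465-70725764 (plus strand), chr2:85198701-85199000 (minus strand) and chr12:108003365-108003664 (minus strand). Capitals mark a TATA box sequence (TATAAA or its reverse complement TTTATA).
Cux2: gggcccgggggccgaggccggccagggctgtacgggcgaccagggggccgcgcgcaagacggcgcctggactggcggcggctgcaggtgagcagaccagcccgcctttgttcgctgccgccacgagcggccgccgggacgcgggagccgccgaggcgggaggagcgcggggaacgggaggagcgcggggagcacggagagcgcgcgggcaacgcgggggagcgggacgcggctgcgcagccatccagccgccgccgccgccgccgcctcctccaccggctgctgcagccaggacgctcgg
Vwc2l: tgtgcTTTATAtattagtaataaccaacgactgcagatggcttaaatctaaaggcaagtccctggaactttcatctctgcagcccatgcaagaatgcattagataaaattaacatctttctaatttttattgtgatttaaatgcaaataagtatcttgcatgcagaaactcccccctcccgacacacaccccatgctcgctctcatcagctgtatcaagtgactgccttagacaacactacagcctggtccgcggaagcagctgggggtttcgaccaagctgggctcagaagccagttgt
Lrrc55: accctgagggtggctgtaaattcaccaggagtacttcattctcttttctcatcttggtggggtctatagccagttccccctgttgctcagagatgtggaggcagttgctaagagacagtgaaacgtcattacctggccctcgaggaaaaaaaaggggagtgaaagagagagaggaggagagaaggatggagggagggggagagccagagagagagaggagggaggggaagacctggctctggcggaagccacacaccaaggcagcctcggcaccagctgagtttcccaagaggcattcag
Bcl11b: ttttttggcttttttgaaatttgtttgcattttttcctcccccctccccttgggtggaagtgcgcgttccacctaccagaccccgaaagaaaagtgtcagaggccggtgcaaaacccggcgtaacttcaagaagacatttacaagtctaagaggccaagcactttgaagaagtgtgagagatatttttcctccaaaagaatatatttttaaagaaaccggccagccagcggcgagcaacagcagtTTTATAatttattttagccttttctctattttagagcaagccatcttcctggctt

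The windows of these 4 genes differ in base composition. The Cux2 window is 80.3% G and C with 48 CpG pairs, and 99.1% of 27025 promoter windows have a lower GC share. The Lrrc55 window is 54.7% G and C with 4 CpG pairs, near the 52.7% median of all windows, while those of Vwc2l (44.3%) and Bcl11b (43.0%) lie below it. TATAAA, on either strand, was found in Vwc2l, 245 bases before the start, and in Bcl11b, 5 bases before it. 14.2% of all windows hold it. The T-box sequence AGGTGTGA (1.27% of all windows), the cyclic AMP response element TGACGTCA (1.88%) and the Cut homeobox sequence ATCGAT (0.881%), searched on both strands, were in none of the 7 windows. The GC box GGGCGG (35.9% of all windows) was in those of Tbr1 and Fezf2. No matches overlapped. The windows of Cux2, Vwc2l and Lrrc55 share none of the 5 sequences.

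Set per kilobase of exon sequence, the unstressed ventral dentate gyrus held more Crym and Bcl11b transcript than that of the other 7 genes. These length-scaled CPM values (RPKM) in Ctrl averaged 36.6 ± 7.29 for Crym (SD, n = 3), 21.1 ± 1.31 for Bcl11b and 17.5 ± 1.78 for Rasgrf2. Tbr1 at 8.74 ± 0.826, Fezf2 at 8.63 ± 2.86 and Vwc2l at 7.67 ± 0.932 RPKM had overlapping ranges, so their order is not resolved. Cux2 averaged 4.99 ± 0.429, Lrrc55 3.01 ± 0.145 and Foxp2 0.332 ± 0.0927 RPKM. Crym lay above 91.8% of 13378 tested genes with a length, Cux2 above 43.0% and Foxp2 above 2.44%. The lengths join all annotated exons of a gene, which lowers the value of genes with many rare exons such as Foxp2, whose 27 exon blocks hold 16346 bases.

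The upper-layer genes were both lower in every CRS library than in every Ctrl library. Cux2, a homeobox factor that also shapes dendrites of upper-layer neurons, lies on chromosome 5 from 121856366 to 122050102. It was at 23.3, 37.4 and 20.98 CPM in CRS1, CRS2 and CRS3, against 50.4, 45.9 and 54.6 CPM in Ctrl1, Ctrl2 and Ctrl3. CRS2 lay nearest to Ctrl, and the groups did not overlap. This gave a log2 fold change of -0.88 (SE 0.18), and -0.79 (SE 0.18) without CRS1. Leaving out CRS2 gave -1.16 and leaving out CRS3 -0.71.

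Rasgrf2, a calcium-responsive exchange factor that activates Ras and Rac, lies on chromosome 13 from 91880400 to 92131656. It was at 113, 138 and 129 CPM in CRS1, CRS2 and CRS3, against 173, 168 and 143 CPM in Ctrl1, Ctrl2 and Ctrl3. The gap between the highest CRS library and the lowest Ctrl library was narrow. On the log2 scale, CRS over Ctrl was -0.34 (SE 0.10), and -0.27 (SE 0.09) without CRS1.

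The deep-layer transcription factors differed in direction. Fezf2, a zinc-finger factor that specifies neurons projecting below the cortex, lies on chromosome 14 from 12342094 to 12348189. It was at 20.3, 45.5 and 41.8 CPM in CRS1, CRS2 and CRS3, against 17.7, 35.1 and 26.0 CPM in Ctrl1, Ctrl2 and Ctrl3. CRS2 and CRS3 lay above all Ctrl libraries, while CRS1 lay among them. The log2 fold change was 0.45 (SE 0.32), 0.72 (SE 0.19) without CRS1, and 0.24 without Ctrl1, the lowest library.

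Bcl11b, a zinc-finger factor that acts downstream of Fezf2 in projection neurons, lies on chromosome 12 from 107910403 to 108003602. It was at 146, 235 and 249 CPM in CRS1, CRS2 and CRS3, against 161, 182 and 170 CPM in Ctrl1, Ctrl2 and Ctrl3. CRS1 was the lowest of the 6 libraries and the other 2 CRS libraries the highest. CRS over Ctrl was, as a log2 fold change, 0.31 (SE 0.17), 0.50 (SE 0.07) without CRS1 and 0.17 without CRS3. Of the 15 granule neuron markers, 14 were also lowest in CRS1, and the part of granule neurons in the Bcl11b values was not tested. Without CRS1, 11 of the 15 granule neuron markers had a positive log2 fold change, with a median of 0.10. So did 9 of the 11 CA1 and subiculum markers, with a median of 0.54. For CA3 and mossy cell markers it was 10 of 13, with a median of 0.13. The part of these cells was not tested either.

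Tbr1, a T-box factor of neurons projecting to the thalamus that holds back Fezf2 and Bcl11b in them, lies on chromosome 2 from 61802930 to 61814114. It was at 20.0, 45.2 and 29.8 CPM in CRS1, CRS2 and CRS3, against 49.6, 42.8 and 51.4 CPM in Ctrl1, Ctrl2 and Ctrl3. CRS1 and CRS3 lay below Ctrl, and CRS2 lay within it. The log2 fold change was -0.59 (SE 0.23), -0.35 (SE 0.15) without CRS1 and -0.92 without CRS2.

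Foxp2, a forkhead factor, lies on chromosome 6 from 14901349 to 15441977 and had 216 counts in CRS1 and 30 to 72 in the other 5 libraries, fewer there than any other of the 9. It was at 23.1, 4.78 and 3.116 CPM in CRS1, CRS2 and CRS3, against 4.21, 7.12 and 4.93 CPM in Ctrl1, Ctrl2 and Ctrl3. Only CRS1 stood above the others, and the 2 remaining CRS libraries overlapped Ctrl or lay below it. Its log2 fold change was 0.95 (SE 0.68) and changed sign to -0.48 (SE 0.29) without CRS1. The SE comes from limma-voom, whose own log2 fold change with 6 libraries was 0.39. The striatal genes Penk and Adora2a were at 165 and 40.0 CPM in CRS1, and at 6.86 to 10.8 CPM and 0.933 to 1.69 CPM in the other 5 libraries. Their part in the Foxp2 value was not tested.

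Crym, mu-crystallin, binds thyroid hormone in the cytosol and lies on chromosome 7 from 120186380 to 120202111. It was at 203, 153 and 204 CPM in CRS1, CRS2 and CRS3, against 101, 122 and 150 CPM in Ctrl1, Ctrl2 and Ctrl3. It was the one member with every CRS library above every Ctrl library, with CRS2 close to Ctrl3. The log2 fold change was 0.61 (SE 0.16), 0.53 (SE 0.15) without CRS1 and 0.77 without Ctrl3.

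Vwc2l and Lrrc55 had lower fold changes than any layer gene among the 9. Vwc2l, a secreted protein with a von Willebrand factor type C domain, lies on chromosome 1 from 70725715 to 70885397. It was at 10.4, 30.7 and 23.1 CPM in CRS1, CRS2 and CRS3, against 57.1, 52.9 and 66.9 CPM in Ctrl1, Ctrl2 and Ctrl3. CRS1, with 97 counts, was the lowest, and the groups were far apart also without it. As a log2 fold change this was -1.46 (SE 0.30), -1.13 (SE 0.14) without CRS1 and -1.80 without CRS2.

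Lrrc55, a leucine-rich repeat protein that serves as an auxiliary subunit of the large-conductance calcium-activated potassium channel, lies on chromosome 2 from 85162334 to 85197197. It was at 8.13, 11.7 and 6.86 CPM in CRS1, CRS2 and CRS3, against 20.5, 18.6 and 19.4 CPM in Ctrl1, Ctrl2 and Ctrl3. The Ctrl libraries lay close together and every CRS library was below them. The log2 fold change was -1.12 (SE 0.17), and -1.08 (SE 0.19) without CRS1. The antisense genes Gm13713 and Gm13716 share 210 and 266 exon bases with Lrrc55. Whether counting used the strand is not stated in the sources, and reads of these genes may not be told apart.

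**Figure D2:**
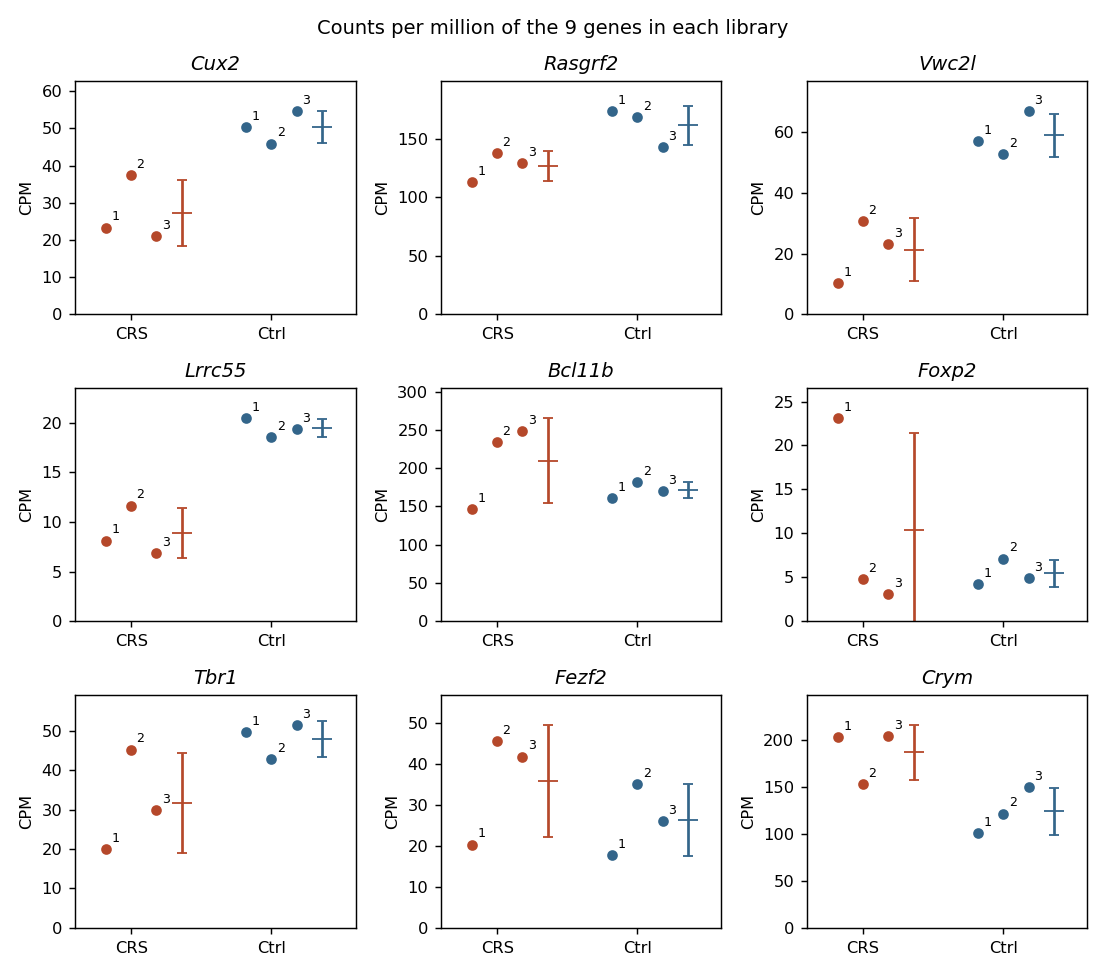
CPM of the 9 genes in the 3 CRS (red, left) and 3 Ctrl (blue, right) libraries, numbered by replicate, with the mean and SD beside the points. Cux2, Rasgrf2, Vwc2l and Lrrc55 lie lower in every CRS library, Crym lies higher, and the Foxp2 mean in CRS rests on CRS1 (the lower end of its SD bar falls below 0 and is not drawn).

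Of the 9 genes, 4 had every CRS library below every Ctrl library, a position held by 9.03% of the 14058 tested genes, and 1 had every CRS library above, a position held by 5.68%. Without CRS1 these were 4 genes, against 15.4% of 14188 tested genes, and 3 genes, against 13.7%. By the quasi-likelihood test of edgeR with Benjamini-Hochberg adjustment over all tested genes, 0 of the 9 passed 0.05, and 0.0285% of all tested genes passed lower and 0% higher. At an unadjusted p under 0.05 there were 1 higher, against 3.86% of tested genes, and 5 lower, against 4.85%. DESeq2 called 1 higher and 2 lower, against 0.277% and 0.484%, the edgeR exact test 1 and 3, against 0.313% and 0.619%, and limma-voom 0, against 0% and 0.00711%. Without CRS1 the quasi-likelihood test called Bcl11b higher, against 0.0775% of all genes, and Vwc2l and Lrrc55 lower, against 0.211%. Without CRS2 it called Cux2 and Lrrc55 lower, against 0.182%, and 0 of the 9 higher, against 0.014%, and with any other 1 library left out it called 0 of the 9. Because the genes were chosen with these values in view, nothing is read from the counts. The median log2 fold change of the 9 was -0.34, with 4 positive and 5 negative, against 0.0038 over all tested genes, and without CRS1 it was -0.35, with 3 positive and 6 negative, against -0.0053.

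**Figure D3:**
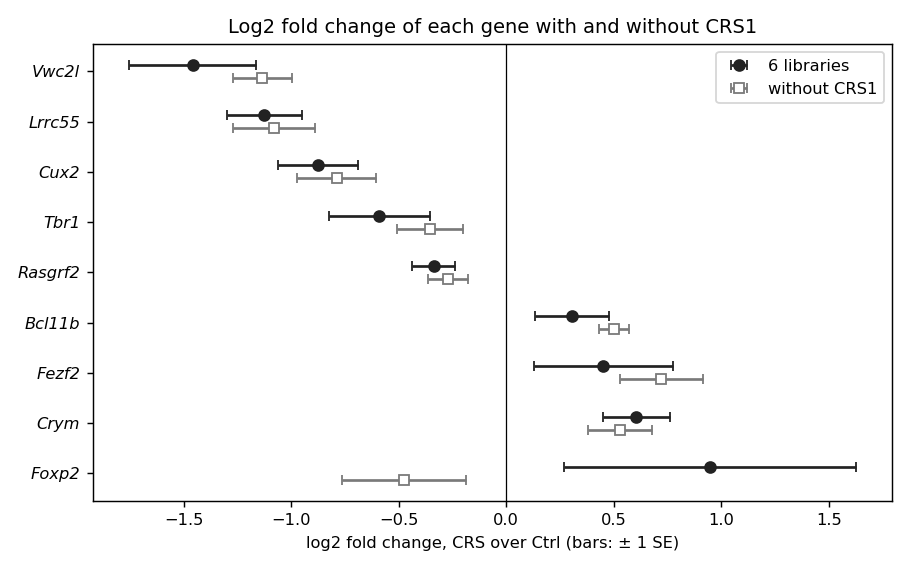
Log2 fold change of CRS over Ctrl for each gene, with 1 SE, from all 6 libraries (filled) and without CRS1 (open). Vwc2l has the lowest value, at -1.46, and Foxp2 alone changes sign when CRS1 is left out.

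Within the unstressed group the 9 genes varied unequally between libraries. The coefficient of variation over Ctrl was 4.81% for Lrrc55, 6.22% for Bcl11b and 8.60% for Cux2, against a median of 8.30% over all tested genes. Fezf2 reached 33.1%, Foxp2 28.0% and Crym 19.9%. Fezf2 was 1.98 times as high in Ctrl2 as in Ctrl1, and Crym 1.49 times as high in Ctrl3 as in Ctrl1. In CRS the median coefficient of the 9 was 32.7%, against 10.2% over all tested genes, and in Ctrl it was 10.2%, against 8.30%. The CRS coefficients include CRS1, and none was computed without it. CRS2 and CRS3 were close for Bcl11b, Rasgrf2 and Fezf2 (higher over lower library 1.06, 1.07 and 1.09) and apart for Cux2 (1.78), Lrrc55 (1.70), Foxp2 (1.53) and Tbr1 (1.52).

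Across the 6 libraries, Cux2 and Lrrc55 had nearly the same profile. Likeness was measured as the root mean square difference of log2 CPM profiles, each centred on its own mean, among 13340 other genes. Cux2 was the third nearest gene to Lrrc55, at 0.131, and Lrrc55 the seventh nearest to Cux2. The genes nearest to Cux2 were Cobl, an actin nucleator, at 0.0747, the Wnt ligand gene Wnt10a at 0.0934 and Trim66 at 0.103, and Cobl and Trim66 were also nearest to Lrrc55, at 0.108 and 0.111. Cobl was at 26.0, 42.2 and 26.4 CPM in CRS1, CRS2 and CRS3, against 64.8, 56.1 and 65.3 CPM in Ctrl1, Ctrl2 and Ctrl3, so that CRS2 was again the CRS library nearest to Ctrl. Such likeness over 6 libraries includes the difference between the groups, for which the 9 genes were chosen.

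The other members had other neighbours. Nearest to Vwc2l were the neuropeptide S receptor gene Npsr1 (0.166), the zinc-finger gene Tshz3 (0.178) and Slc17a6, the vesicular glutamate transporter of many subcortical and retrohippocampal neurons (0.251). Nearest to Tbr1 were the nicotinic receptor gene Chrna4 (0.0622), the chromatin organiser gene Satb1 (0.0819) and Doc2a, a calcium sensor of vesicle release (0.0910). Nearest to Fezf2 was the immediate-early gene Fosb (0.0979), followed by Fgf11 (0.124) and the receptor phosphatase gene Ptpru (0.126), with Bcl11b at rank 61. Bcl11b had 2310009B15Rik (0.0403), the Nogo receptor family gene Rtn4rl2 (0.0429) and BC018242 (0.0659). Rasgrf2 had the mitochondrial glutamate carrier gene Slc25a18 (0.0372), the protocadherin gene Pcdhb16 (0.0381) and Pcsk2os1 (0.0427). Crym had Icosl (0.0915), Lyplal1 (0.1104) and 6330403A02Rik (0.113). Foxp2 had Cdr2 (0.163), Ttc18 (0.233) and the protease inhibitor gene A2m (0.233), all highest in CRS1, where A2m was at 15.8 CPM against 2.33 to 5.05 CPM in the other 5 libraries.

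**Figure D4:**
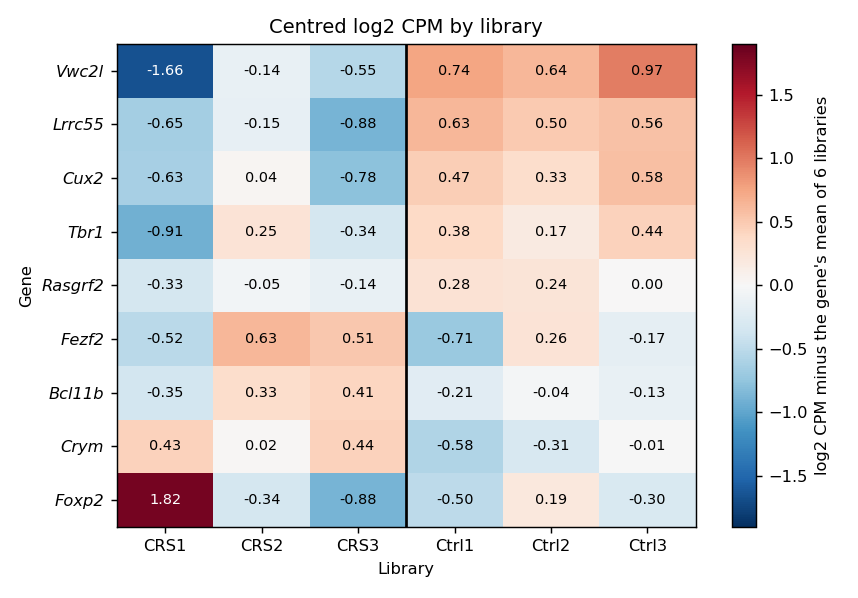
Log2 CPM of each gene minus its own mean over the 6 libraries, CRS left of the line and Ctrl right of it. Vwc2l, Lrrc55, Cux2, Tbr1 and Rasgrf2 are positive or at 0.00 throughout Ctrl, Crym is negative there, Fezf2 and Bcl11b are negative in CRS1 and positive in CRS2 and CRS3, and Foxp2 is high in CRS1.

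A wider set of cortical genes was described in the same libraries with the 9 left out. It holds 49 genes of upper layers, of deep layers and of entorhinal and retrohippocampal cortex, of which 47 were tested. Some of these genes are also on the granule neuron list or the CA1 and subiculum list. In all 6 libraries 0 of the 47 passed by edgeR's quasi-likelihood test, against 0% of all tested genes higher and 0.0285% lower. At an unadjusted p under 0.05, 6 were higher and 11 lower, against 3.86% and 4.85% of all tested genes. DESeq2 called 1 higher and 2 lower, against 0.277% and 0.484% of all tested genes, the exact test 1 and 3, against 0.313% and 0.619%, and limma-voom 0, against 0% and 0.00711%. The median log2 fold change was -0.11 for the 16 tested upper-layer genes (12 of them negative), 0.04 for the 21 deep-layer genes (9 negative) and -0.33 for the 12 entorhinal and retrohippocampal genes (9 negative), 2 of which are also deep-layer genes. Without CRS1 these medians were -0.08, 0.11 and -0.12. Over all tested genes the median with 6 libraries was 0.0038. Of the 47, 9 lay below Ctrl in every CRS library, against 9.03% of all tested genes, and 2 above, against 5.68%.

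Without CRS1, the quasi-likelihood test called 4 of the 47 lower, against 0.211% of all tested genes, and 1 higher, against 0.0775%. The lists too were chosen with earlier results of these data known, so nothing is read from these counts. Slc17a6 had 50.4 and 43.0 CPM in CRS2 and CRS3, against 77.9, 113 and 94.8 CPM in Ctrl1, Ctrl2 and Ctrl3, a log2 fold change of -1.03 (SE 0.14) with an adjusted p of 0.0158. It was at 13.8 CPM in CRS1. Tshz2, a zinc-finger gene of deep layers and retrohippocampal cortex, was at 149 and 91.2 CPM in CRS2 and CRS3, against 215, 238 and 260 CPM in Ctrl1, Ctrl2 and Ctrl3, with a log2 fold change of -0.98 (SE 0.16) and an adjusted p of 0.0400. It was at 27.6 CPM in CRS1. Both were thus lowest in CRS1, and all CRS libraries lay below all Ctrl libraries.

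The netrin receptor gene Unc5d was at 43.8 and 43.3 CPM in CRS2 and CRS3, against 65.0, 72.9 and 85.2 CPM in Ctrl1, Ctrl2 and Ctrl3, with a log2 fold change of -0.77 (SE 0.11) and an adjusted p of 0.0224. CRS1, at 72.2 CPM, lay within Ctrl for Unc5d. Sema3e, a secreted guidance cue, was at 77.2 and 69.8 CPM in CRS2 and CRS3, against 53.9, 49.8 and 52.8 CPM in Ctrl1, Ctrl2 and Ctrl3, with a log2 fold change of 0.50 (SE 0.08) and an adjusted p of 0.0415. CRS1, at 135 CPM, lay on the same side.

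Of the genes nearest to the threshold with all 6 libraries, the transcription factor gene Mef2c was at 186, 275 and 222 CPM in CRS1, CRS2 and CRS3, against 386, 323 and 399 CPM in Ctrl1, Ctrl2 and Ctrl3, with a log2 fold change of -0.69 (SE 0.14) and an adjusted p of 0.215 by the quasi-likelihood test. Slc17a6 was at -1.41 (SE 0.38) with 0.318, Sema3e at 0.87 (SE 0.23) with 0.342, and Sulf2, which trims heparan sulfate, at 0.32 (SE 0.10) with 0.388 in that fit. The natriuretic peptide clearance receptor gene Npr3 was at 0.65 (SE 0.24), with 0.521. Slc17a6 is also on the list of thalamus and habenula markers, whose 13 genes summed to 262, 407 and 348 CPM in CRS1, CRS2 and CRS3, against 470, 520 and 531 CPM in Ctrl1, Ctrl2 and Ctrl3. Those sums include Slc17a6 itself. Of the 13 genes 11 were tested, 9 with a negative and 2 with a positive log2 fold change. The CRS sums lay below all Ctrl sums, and the CRS values of Vwc2l, Lrrc55, Cux2 and Rasgrf2 likewise lay below all their Ctrl values. This was not particular to the thalamus and habenula list. Without the 9, upper-layer sums were 1096 to 1112 CPM in CRS and 1233 to 1268 CPM in Ctrl. Entorhinal and retrohippocampal sums, with Slc17a6, were 644 to 861 CPM and 957 to 1129 CPM. Astrocyte sums also lay lower in every CRS library. Deep-layer sums overlapped, at 1040 to 1344 CPM in CRS and 1154 to 1256 CPM in Ctrl. The part of cells from other regions in these values was not tested.

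**Figure D5:**
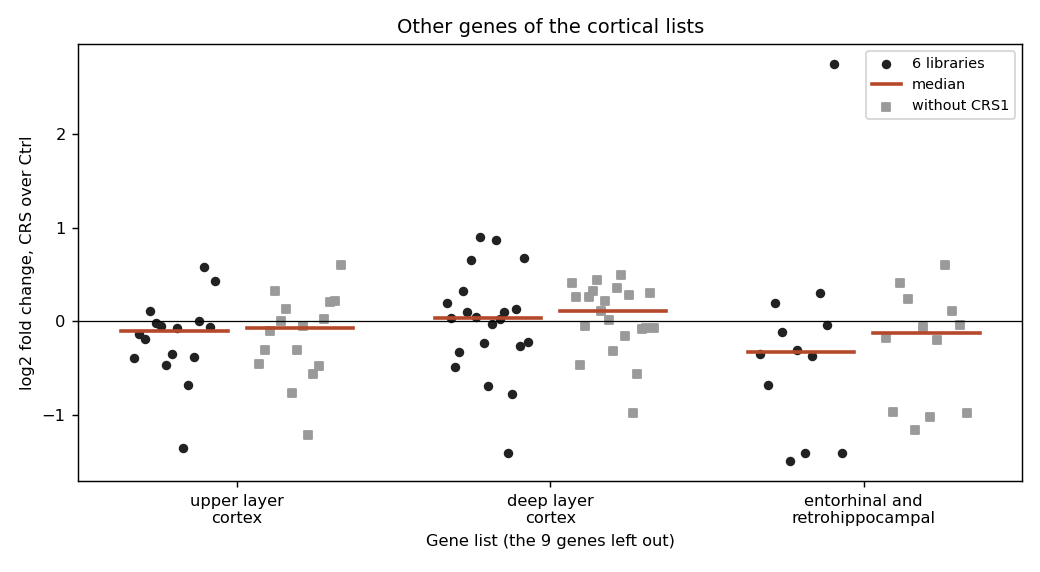
Log2 fold change of CRS over Ctrl for the tested genes of 3 cortical lists, the 9 genes left out, with all 6 libraries (circles) and without CRS1 (squares). Red lines are medians, at -0.11, 0.04 and -0.33 with all 6 libraries and -0.08, 0.11 and -0.12 without CRS1, and the point near 2.75 is Penk, which is also a striatal marker.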

How the data were processed

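Per the labels, ribosomal RNA was depleted, libraries kept strand (TruSeq Stranded Total RNA), and single-end reads were taken from 1 pool over several lanes. The deposited values are raw counts per gene symbol. The submitters' processing notes list the builds mm10 and GRCm38 and the tools TopHat2 2.0.9, Trimmomatic 0.33, HTSeq 0.6.1, FastQC 0.11.3 and, from edgeR, version 3.12.0, without roles. Annotation and strand setting: not given in the sources used here. Summary rows in HTSeq's format, for reads in no gene (59.5% to 63.1% of those listed) and ambiguous reads (0.211% to 0.253%), were left out.

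CPM is the count over the summed gene counts of a library. 3 counts, the limit for a count of 0, are 0.297 to 0.361 CPM (counting error only). In R 4.3.3, edgeR 4.0.16 kept 14058 genes (filterByExpr), scaled them by trimmed mean of M values (TMM) and compared CRS with Ctrl by its quasi-likelihood F-test, two-sided, with no term besides group. SE values come from limma 3.58.1 (voom). DESeq2 1.42.0, the exact test, other scalings and filters, a replicate block and leaving out each library were alternatives. The fits were tested on simulated counts. RPKM uses joined exons of GENCODE M21 (GRCm38), where 22708 symbols matched 1 gene. The log2 profiles used a pseudocount of 0.5 CPM and genes averaging 1 or more in log2 CPM.

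The 9 genes and all lists were chosen with earlier results of these data known. Besides the 9, named genes are the 3 nearest profiles of each, cortical list genes that passed with or without CRS1, and the 3 with the smallest p in each direction. The rule also takes the 2 genes of each marker list with the highest mean CPM. They are given only for the granule neuron, striatum and amygdala, and choroid plexus lists, and other lists are given by their sums. 1 gene that the rule takes is not reported here. Prox1, Penk, Adora2a, Ctgf, Cplx3, Nr4a2, Nxph4, Syt6, Hs3st4 and Tle4 were named after their values were seen. The replicates are called biological, but the labels do not state how many animals a library holds. P-values therefore measure the spread between these libraries, which may be technical. No 2 libraries agreed within sampling noise (lowest chi-square per degree of freedom 2.97).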

Additional observations from a re-analysis of the deposited data

How the results depend on the processing

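The log2 fold changes of the 9 genes kept their sign under other scalings, filters, tools and the replicate block, and when any 1 library was left out, except that Foxp2 turned to -0.48 without CRS1 (it was 1.39 without CRS3). Counts of calls depended on the tool and the libraries. With 6 libraries the main test called 0 genes higher and 4 lower. DESeq2 called 39 and 68, the edgeR exact test 44 and 87, and limma-voom 1 lower. With 1 library left out, 0 to 11 were called higher and 0 to 30 lower. Over the 47 cortical list genes, DESeq2 called 1 higher and 2 lower, the exact test 1 and 3, and fits with 1 library left out 0 to 1 higher and 0 to 4 lower. Without CRS1 (alternatives chosen after seeing the data), the 11 higher and 30 lower became 165 and 193 with no filter, 75 and 92 by DESeq2, and 155 and 196 by the exact test, and a robust fit called 24 higher. Of the cortical list, 1 higher and 4 lower became 3 and 8 with no filter, 7 lower by the exact test and 2 lower in the robust fit. The cause was not tested. The labels' replicate numbers are not said to pair libraries, and the deviations of same-numbered libraries correlated at 0.136, -0.0105 and 0.0393. With the number as a replicate block, 0 genes were called lower with 6 libraries. Without CRS1 the block gave 257 higher and 266 lower, and 4 and 9 in the cortical list. In that fit Ctrl1 was alone in its block, so the difference came only from CRS2 and CRS3 against Ctrl2 and Ctrl3. Little was left to estimate the spread, so these counts do not show an effect of pairing. Not every library correlated best with its own number. Depth limits Foxp2 most, with 30 to 72 counts outside CRS1.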

Other observations

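Some deep-layer list genes differed more among the CRS libraries than between the groups. They were chosen after their values were seen, and no test was made of them. Ctgf, a secreted matrix protein of the deepest cortical layer, was at 8.34, 26.6 and 6.44 CPM in CRS1, CRS2 and CRS3, against 14.7, 13.5 and 20.4 CPM in Ctrl1, Ctrl2 and Ctrl3. Cplx3, a complexin found in the same layer, was at 2.25, 11.7 and 3.64 CPM in CRS1, CRS2 and CRS3, against 8.19, 10.3 and 9.65 CPM in Ctrl1, Ctrl2 and Ctrl3. Nr4a2, a nuclear receptor gene of that layer and an activity-induced gene, was at 25.0, 102 and 63.7 CPM in CRS1, CRS2 and CRS3, against 65.4, 56.2 and 73.7 CPM in Ctrl1, Ctrl2 and Ctrl3. For each of the 3 genes CRS2 was the highest of all 6 libraries. Nxph4 of the same list, too low to be tested, did not share this, at 0.816 CPM in CRS2 against 1.08, 0.791 and 0.857 CPM in Ctrl1, Ctrl2 and Ctrl3.

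CRS1 was the extreme library for most of the deep-layer list, and also for most of some other lists. It was lowest for 10 and highest for 1 of the 12 entorhinal and retrohippocampal genes. For the 15 granule neuron markers it was lowest for 14. All 13 tested striatum and amygdala markers were highest in CRS1. Of the 16 upper-layer genes, 6 were lowest and 1 highest in it. The share over all tested genes was not computed. Of the 21 tested deep-layer genes without the 9, 12 were lowest and 7 highest in CRS1. Syt6 and Hs3st4 were picked from the 7 after their values were seen. Syt6, a synaptotagmin gene, was at 20.2 CPM in CRS1, against 5.14 to 8.40 CPM in the other 5 libraries, and Hs3st4, a heparan sulfate sulfotransferase gene, at 85.4 CPM against 33.7 to 55.0 CPM. Both were highest in the library in which Foxp2 was highest. Tbr1, named above with Foxp2 for neurons that project to the thalamus, was lowest there, at 20.0 CPM against 29.8 to 51.4 CPM. Tle4, 1 of the 12, was at 90.7 CPM in CRS1 against 97.3 to 119 CPM.

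Summed markers of other cell types are given here as values. CA1 and subiculum markers summed to 522, 857 and 1032 CPM in CRS1, CRS2 and CRS3, against 527, 756 and 864 CPM in Ctrl1, Ctrl2 and Ctrl3. CA3 and mossy cell markers summed to 1580, 1145 and 1215 CPM in CRS1, CRS2 and CRS3, against 959 to 1116 CPM in Ctrl. Immature granule neuron markers summed to 351 to 467 CPM in CRS, against 466 to 518 CPM in Ctrl, and interneuron markers to 802 to 837 CPM in CRS, against 810 to 895 CPM in Ctrl. Astrocyte markers summed to 2488 to 2836 CPM in CRS, against 2838 to 3264 CPM in Ctrl. Oligodendrocyte markers summed to 5056, 3434 and 2206 CPM in CRS1, CRS2 and CRS3, against 2706 to 3433 CPM in Ctrl. Microglia markers summed to 439 to 573 CPM in CRS, against 410 to 562 CPM in Ctrl, and vascular and meningeal markers to 189 to 269 CPM in CRS, against 228 to 239 CPM in Ctrl. CRS1 had the lowest sum of all libraries for the immature granule neuron, interneuron, astrocyte, and vascular and meningeal lists.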
